A study of Mus musculus with 6 samples.

Results

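The collecting duct of the kidney is lined by an epithelium whose identity rests on a small set of transcription factors, and 8 of these factors together with the apical mucin Muc1 were followed in mouse kidneys at E18.5. The factors were Elf3, Elf5 and Ehf of the ETS family, Grhl1, Grhl2 and Tfcp2l1 of the grainyhead and CP2 families, and Gata2 and Gata3. Members were taken by name: every probe annotated to 1 of these 9 genes entered, which gave 18 probes, while the array named 19054 genes in all. Whole kidneys were read on Illumina MouseWG-6 BeadChips, a 1-colour array on which biotin-labelled cRNA binds to probe beads. Each of 3 litters gave 1 control pool and 1 FoxD1GC;Dicerfl/fl pool, each made from the kidneys of 2 embryos, so that each group held 3 pools.

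FoxD1GC;Dicerfl/fl embryos carried floxed Dicer, which encodes the enzyme that cuts miRNA precursors, and an allele that makes an eGFP-Cre fusion protein from the endogenous FoxD1 locus. Control pools came from littermates without Cre, whose Dicer alleles are not given in the sources used here. The groups thus differed in the FoxD1 allele as well as in Dicer, and these differences cannot be told apart. The FoxD1GC and floxed Dicer lines had been kept on different strain backgrounds. Cre acts in the renal stroma and its descendants, whereas the collecting duct arises from the ureteric bud, so the genes described here are known mainly from cells outside the deleted lineage.

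Collecting duct epithelium holds principal cells, which reabsorb water and sodium, and intercalated cells, which handle acid and base. ETS factors of the Elf3, Elf5 and Ehf branch are made mainly in epithelia, grainyhead factors maintain epithelial junctions and barriers, and GATA factors act in the nephric duct and its derivatives. Muc1 is a transmembrane mucin of the apical surface of the distal nephron and collecting duct.

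Of these 9 genes, Elf3 and Muc1 were higher in FoxD1GC;Dicerfl/fl kidneys by about 1 log2 unit, and Elf5 was lower. Gata2, Gata3, Grhl1, Grhl2 and Tfcp2l1 did not pass the test, and Ehf was not detected on any array. Levels are log2 intensity after background correction and quantile normalization, a change is mutant minus control within litters, and a call is an adjusted p under 0.05 in limma over all tested probes. A gene stands through its brightest tested probe, where tested means a detection p under 0.01 on at least 3 of the 6 arrays.

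By this rule 8 of the 9 genes could be tested, of which 2 were called higher and 1 lower. Over all 9921 genes tested, 5.56% were called, 2.41% higher and 3.15% lower. The median change of the 8 tested genes was -0.06, beside 0.01 over all tested genes. Of their 14 tested probes, 9 were called, 7 higher and 2 lower, where 4.87% of all tested probes were called, 2.05% higher and 2.82% lower. All 9 called probes changed in 1 direction in each of the 3 litters. A call in a fit blocked by litter favours such agreement, and these probes read 3 genes on the same arrays, so it is no separate support. The 4 remaining probes, among them the single probe of Ehf, were not detected on any array.

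Promoter windows of the 3 called genes are shown because these genes changed in opposite directions and 2 of them changed by a like amount. Sequences are from RefSeq (GRCm38.p6) and run from 250 bases before to 50 bases after the annotated start, 5′ to 3′ on the strand of the gene. Windows were held for 7 of the 9 genes, and Ehf and Grhl2 had none. Elf3 lies on the minus strand with its window at chr1:135258423-135258722, Muc1 on the plus strand at chr3:89228806-89229105, and the upstream of 2 windows of Elf5 on the plus strand at chr2:103411848-103412147. Capitals mark every match, on either strand, to the kappaB motif, the ETS core AGGAA, a grainyhead-type motif AACNNGTT, the E-box CAGGTG or the TATA box TATAAA.
Elf3: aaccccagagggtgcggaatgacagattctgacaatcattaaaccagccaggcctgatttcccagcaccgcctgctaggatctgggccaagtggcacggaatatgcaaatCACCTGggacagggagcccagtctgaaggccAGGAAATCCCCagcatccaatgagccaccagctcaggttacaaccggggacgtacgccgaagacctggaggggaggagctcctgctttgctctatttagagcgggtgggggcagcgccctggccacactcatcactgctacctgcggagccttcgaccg
Muc1: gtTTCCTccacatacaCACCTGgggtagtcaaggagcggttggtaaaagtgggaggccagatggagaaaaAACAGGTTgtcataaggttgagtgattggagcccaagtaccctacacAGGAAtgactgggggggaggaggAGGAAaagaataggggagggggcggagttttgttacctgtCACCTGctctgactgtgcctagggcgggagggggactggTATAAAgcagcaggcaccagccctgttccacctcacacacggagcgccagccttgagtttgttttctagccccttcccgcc
Elf5: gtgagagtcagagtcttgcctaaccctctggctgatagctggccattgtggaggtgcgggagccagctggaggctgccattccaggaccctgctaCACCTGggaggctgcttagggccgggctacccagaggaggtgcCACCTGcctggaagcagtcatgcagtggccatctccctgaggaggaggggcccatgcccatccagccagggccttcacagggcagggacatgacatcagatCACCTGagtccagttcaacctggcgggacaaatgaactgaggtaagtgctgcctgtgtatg

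The motifs were chosen after these sequences had been looked at, and a match is a description of letters, not a bound site. The Elf3 window held a kappaB match on the minus strand at -108, found in 8.46% of all 32851 windows, which overlaps an ETS core at -109. An E-box stood on the minus strand at -140. The Muc1 window had a TATA box at -31, held by 13.6% of windows, and the grainyhead-type motif, held by 4.20%, at -180. It also had the ETS core at 3 places, -248, -133 and -110, and the E-box at 2, -234 and -70. The upstream Elf5 window held the E-box at 3 places, -155, -112 and -11, and its downstream window at 22, after the start. The ETS core was present in 66.7% of windows and the E-box in 20.2%. Among genes not called, the window of Tfcp2l1 held the E-box at 2 places, -120 and -40, and a TATA box at -28. The windows of Gata2, Gata3 and Grhl1 held no E-box of these letters. The E-box thus did not separate called genes from those not called. The letters AGATAA, which resemble sites of Gata2 and Gata3 and were found in 11.2% of windows, and TTCNNNGAA, a STAT motif found in 8.30%, were not in any of the 10 windows of these genes.

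Elf3 encodes an ETS factor of differentiating epithelia that is also known as a gene induced by inflammatory signals. On its brightest probe the controls of litters 1, 2 and 3 had levels of 7.39, 7.43 and 7.60. The FoxD1GC;Dicerfl/fl pools of the same litters had 8.23, 8.81 and 8.33. All mutant pools lay above all control pools, the mutant pool of litter 2 was the highest, and the differences within litters were 0.84, 1.38 and 0.73. The change was 0.98 ± 0.15 (SE, n = 3 litters), which is 1.98-fold with a 95% interval of 1.55 to 2.52 (limma, adjusted p = 0.0158). Before normalization the same probe had intensities of 251, 245.4 and 291.5 in the control pools and 369.7, 594.4 and 370.8 in the mutant pools.

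The second Elf3 probe read 5.89, 6.03 and 6.13 in control pools and 6.65, 6.75 and 6.74 in mutant pools, and the dimmest 5.62, 5.96 and 5.93 against 6.69, 6.80 and 6.89. Neither probe had overlapping groups, and on neither was litter 2 the litter with the highest difference. Their changes were 0.70 ± 0.10 (adjusted p = 0.0149) and 0.95 ± 0.11 (adjusted p = 0.00571). The 3 Elf3 probes thus all rose, by between 1.62-fold and 1.98-fold in the fit. These sizes depended on the scale: in the authors' log2 values the second probe had a change of 0.26 and the dimmest 0.35. Without litter 2 the brightest probe had a change of 0.79 and was no longer called (adjusted p = 0.116).

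Muc1 was read by 4 probes, all of which rose, by nearly the same amount in the fit. The brightest read 7.23, 7.61 and 7.81 in controls (litters 1, 2 and 3) and 8.45, 8.69 and 8.50 in mutants. The lowest mutant pool stood above the highest control pool, and the control pools were spread more widely than the mutant pools. The change was 0.99 ± 0.13, or 1.99-fold with a 95% interval of 1.60 to 2.48 (adjusted p = 0.0102), with differences of 1.22, 1.07 and 0.69 within litters. Its intensities before normalization were 232.3, 268.3 and 323.1 in control pools and 417.5, 555.6 and 405.3 in mutant pools.

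On Muc1 probe 2, numbered by brightness, the control pools read 7.15, 7.49 and 7.61 and the mutant pools 8.42, 8.32 and 8.50. Probe 3 read 6.48, 7.04 and 7.03 against 7.51, 7.98 and 7.86, and probe 4 read 6.31, 6.27 and 6.76 against 7.43, 7.63 and 7.32. Groups did not overlap on any of the 4 probes. The changes of probes 2, 3 and 4 were 1.00 ± 0.13 (adjusted p = 0.00814), 0.94 ± 0.11 (adjusted p = 0.00575) and 1.01 ± 0.16 (adjusted p = 0.0197). In the authors' log2 values they were 0.65, 0.51 and 0.48, beside 0.67 for the brightest probe. Without litter 2 the change on the brightest probe was 0.96 and lost its call (adjusted p = 0.129).

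Elf5 encodes an ETS factor that marks and acts in principal cells of the mouse collecting duct, and its probes moved the other way. The brightest read 7.72, 8.00 and 7.80 in control pools and 7.27, 7.38 and 7.22 in mutant pools. All 3 mutant pools lay below all 3 control pools, by 0.45, 0.62 and 0.58 within litters. The level was 1.46-fold lower with a 95% interval of 1.23 to 1.74, a change of -0.55 ± 0.10 (adjusted p = 0.0343). The second probe read 6.30, 5.88 and 5.95 in control pools and 4.89, 5.31 and 5.07 in mutant pools, where it was detected on 2 of the 3 arrays. Its change was -0.95 ± 0.17 (adjusted p = 0.0258), with litter 1 the litter that differed most, by -1.41. All 3 control arrays detected this probe, and its mutant levels lay near background, so the size of its fall depended on the scale. The change was -0.55 with an offset of 50. In the authors' log2 values it was -0.24 and was not called (limma, adjusted p = 0.0801). The third probe was not detected on any array, with detection p from 0.0502 to 0.151. The call on the brightest probe was lost when any 1 litter was left out, at changes of -0.60, -0.51 and -0.54 without litters 1, 2 and 3 (adjusted p = 0.0736, 0.254 and 0.0677).

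**Figure D1:**
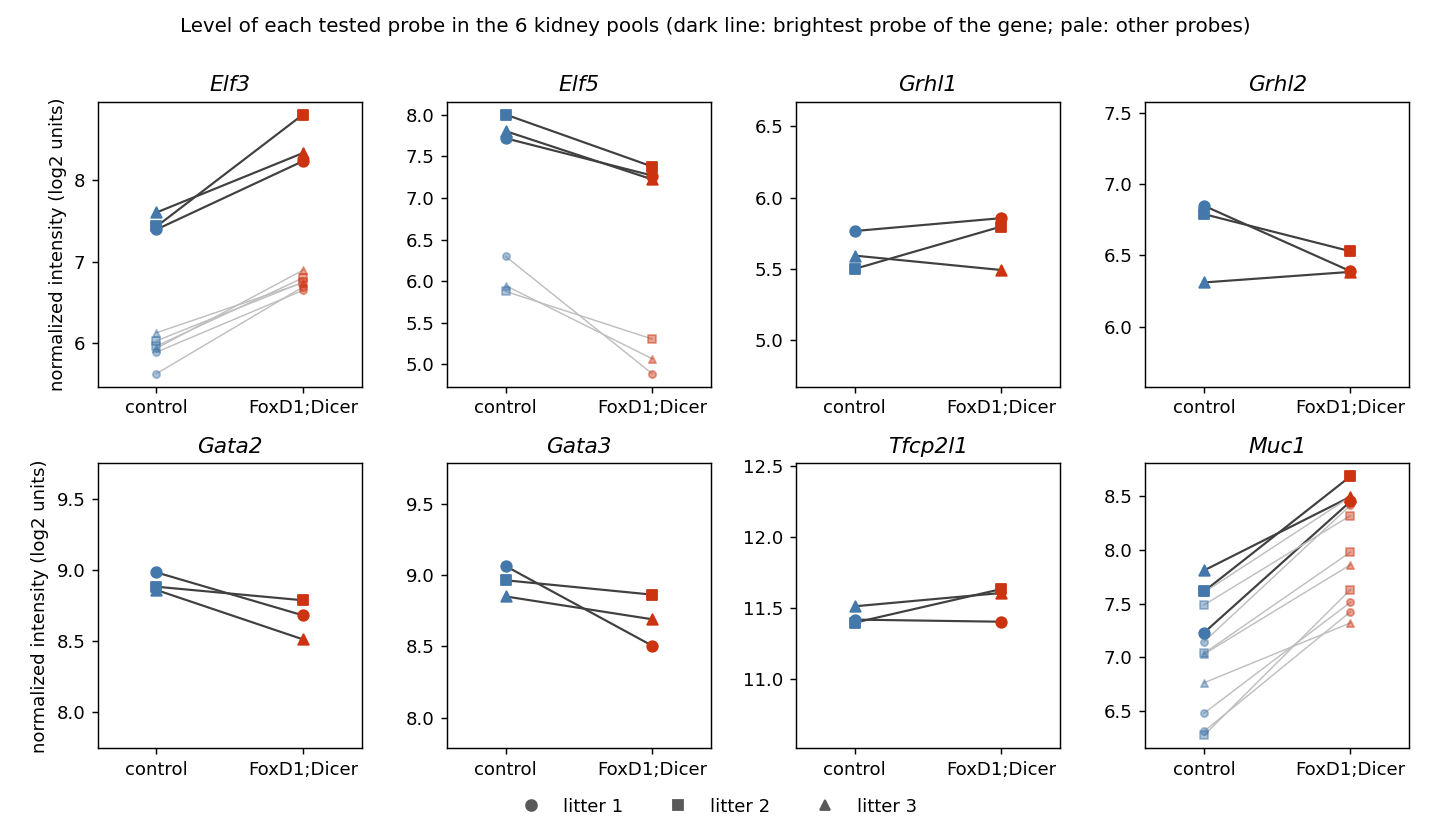
Log2 intensity of each tested probe of each tested gene (vertical axis) in each control and FoxD1GC;Dicerfl/fl pool, with lines joining the pools of 1 litter. Dark lines mark the brightest probe of a gene and pale lines its other probes. Elf3 and Muc1 lines all rise and Elf5 lines all fall, while Tfcp2l1, between 11.40 and 11.63 on all arrays, stays nearly level.

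Ehf, the third ETS gene of this branch, lies beside Elf5 on chromosome 2, at 103263431 to 103303275 against 103412098 to 103450989 (GRCm38.p6). Its single probe read 4.21 to 4.48 on the 6 arrays, with detection p from 0.158 to 0.940. It was not above background in either group, so no change could be measured.

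Gata2, a factor of the ureteric bud and collecting duct as well as of endothelium and blood cells, read 8.98, 8.88 and 8.86 in control pools and 8.68, 8.79 and 8.51 in mutant pools. The groups did not overlap but were separated by a gap of 0.07. Its change was -0.25 ± 0.11 with an interval of -0.51 to 0.01 (adjusted p = 0.272). Counting Gata2, 4 of the 8 tested genes had groups that did not overlap, a property of 25.8% of all genes tested. Among probes it was 10 of 14, beside 24.2% of all probes tested.

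Gata3, needed for the nephric duct and also made in mesangial cells, read 9.06, 8.96 and 8.85 in control pools and 8.51, 8.86 and 8.69 in mutant pools. The highest mutant pool stood just above the lowest control pool, although each mutant pool lay below the control pool of its litter. Its change was -0.27 ± 0.13 with an interval of -0.58 to 0.03 (adjusted p = 0.297). The intervals of both GATA genes included 0.

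The 3 genes of the grainyhead and CP2 families did not pass the test. Grhl2, which maintains the junctions and barrier of collecting duct epithelium, read 6.85, 6.79 and 6.31 in control pools and 6.39, 6.53 and 6.38 in mutant pools. Grhl1 read 5.77, 5.50 and 5.59 against 5.86, 5.80 and 5.49. In both the groups overlapped and the litters did not share a direction. The change was -0.22 ± 0.13 with an interval of -0.53 to 0.10 for Grhl2 (adjusted p = 0.421) and 0.10 ± 0.12 with an interval of -0.19 to 0.38 for Grhl1 (adjusted p = 0.713). Each gene had a second probe that was not detected on any array, with detection p from 0.119 to 0.604 for Grhl2 and 0.322 to 0.901 for Grhl1. Tfcp2l1, which is needed for intercalated cells to form, read 11.42, 11.40 and 11.51 in control pools and 11.40, 11.63 and 11.61 in mutant pools. Its groups overlapped, and the change was 0.10 ± 0.11 with an interval of -0.15 to 0.36 (adjusted p = 0.653).

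**Figure D2:**
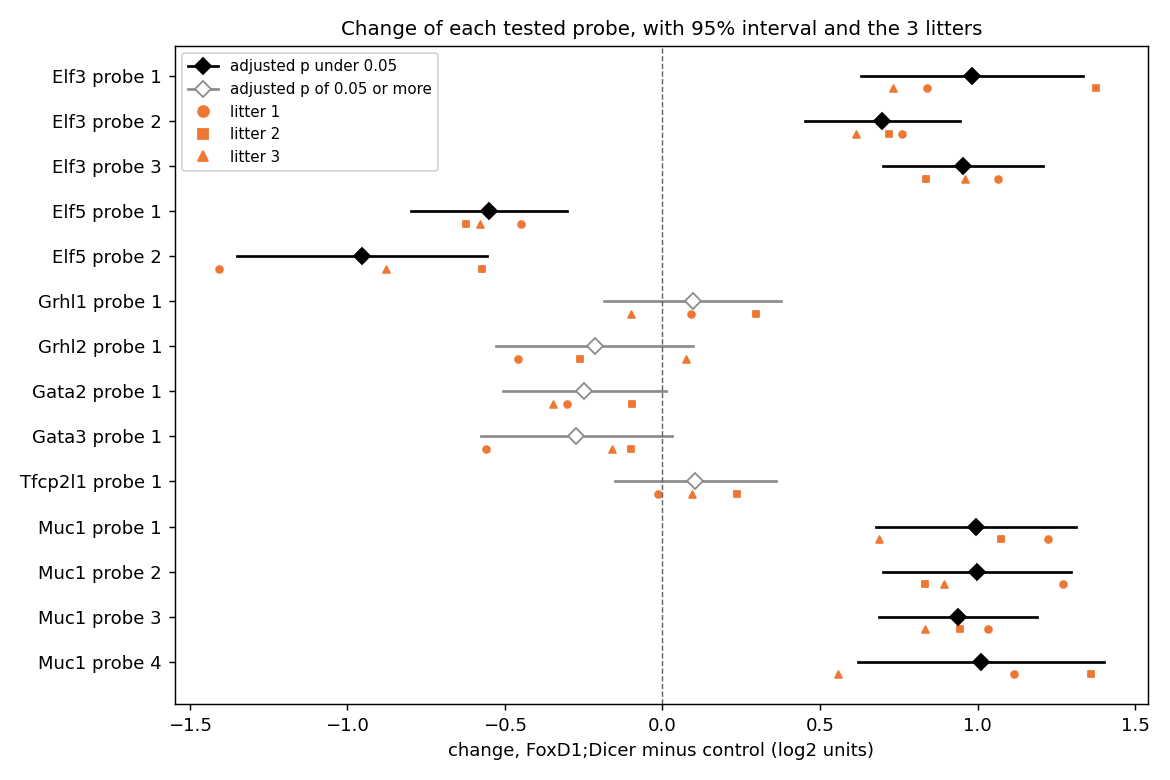
Change of each of the 14 tested probes (horizontal axis, log2 units, mutant minus control) with its 95% interval, and the differences within litters 1, 2 and 3 as separate marks. The 7 probes of Elf3 and Muc1 stand right of 0 and the 2 of Elf5 left of 0, with all litters on the same side.

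Other genes of the same families were then considered. Of 17 listed relatives (other ETS, GATA, grainyhead, CP2 and mucin genes), 7 could be tested and none was called by limma, with 0 at an unadjusted p under 0.05. Their median change was 0.01. The family member with the lowest adjusted p was Ubp1, a CP2 factor, at 0.25 ± 0.12 (adjusted p = 0.299). Grhl3, Gata1 and Spdef were among those not tested. The ETS relatives Elf1, Elf2 and Elf4 had changes of 0.06, 0.04 and 0.01.

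Genes of the epithelial programme known to depend on grainyhead factors (junction, protease and splicing genes) were listed next. Like the other lists, this one was chosen with earlier results of these data known, so its counts are a description. Of 17 genes, 14 were tested, 5 rose, 0 fell and 9 were not called, where 2.41% of all tested genes were called higher. The median change was 0.34 beside 0.01 over all genes. Cldn3, Cldn7 and Cldn4, tight junction claudins, rose by 1.67 ± 0.13, 1.22 ± 0.13 and 1.13 ± 0.13 (adjusted p = 0.00212, 0.00538 and 0.00583). Ovol1, a zinc finger factor that represses mesenchymal genes, rose by 0.58 ± 0.10 (adjusted p = 0.0253). Spint1, a protease inhibitor picked here after its value was seen to complete the count, rose by 0.57 ± 0.11 (adjusted p = 0.0413). Cdh1, the E-cadherin gene, read 0.45 ± 0.11 higher without passing the test (adjusted p = 0.0729), and the splicing factors Esrp1 and Esrp2 had changes of 0.21 and 0.09. Epcam was not detected on any array. The count was 3 without litter 1 and 1 without litter 2.

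Called principal cell genes moved in both directions. Of 15 genes listed, 14 were tested, 3 rose, 2 fell and 9 were not called, with a median change of -0.11. Changes were negative in 9 of the 14 and positive in 5, which were the keratins Krt19, Krt8 and Krt18 with Fxyd4 and Avpr2. Aqp2, the vasopressin-regulated water channel, fell by 1.62 (SE 0.14, adjusted p = 0.00288), and Krt19, an epithelial keratin, rose by 1.55 ± 0.16 (adjusted p = 0.00415). Krt8, another keratin, and Fxyd4, a regulator of the sodium pump, rose by 0.59 ± 0.11 (adjusted p = 0.0347) and 0.53 ± 0.10 (adjusted p = 0.0378). Aqp4, a basolateral water channel named after its value was seen, fell by 0.49 (SE 0.10, adjusted p = 0.0443). The sodium channel subunits Scnn1a, Scnn1b and Scnn1g had changes of -0.33, -0.10 and -0.15, none of them called. Hsd11b2, Aqp3 and Kcnj1 had changes of -0.36, -0.22 and -0.13 and were not called either. Aqp2 was the gene of this list that stayed called without litter 2, at -1.78 (adjusted p = 0.0306), and the count was 2 without litter 1, 3 without litter 3 and 3 with median scaling of the arrays.

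Of 16 genes of the ureteric bud and its tips, 10 were tested and none was called by limma, although 4 had an unadjusted p under 0.05. Their median change was 0.14. Wnt9b and Wnt7b, ligands of the ureteric bud stalk, had changes of -0.50 (adjusted p = 0.0918) and 0.39 (adjusted p = 0.119), and the tip receptor Ret one of -0.22 (adjusted p = 0.309). Of 13 intercalated cell genes, 8 were tested and none was called, with 2 at an unadjusted p under 0.05 and a median of -0.21. Foxi1, the factor that specifies intercalated cells, had a change of 0.50 (adjusted p = 0.147) and Car2, a carbonic anhydrase, one of -0.61 (adjusted p = 0.126). Of the ureteric genes, 2 were called with the authors' own log2 values, 2 with an intensity trend in eBayes and 1 with an offset of 50. Of the intercalated cell genes, 1 was called with median scaling, 1 with an offset of 50 and 1 with the intensity trend.

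**Figure D3:**
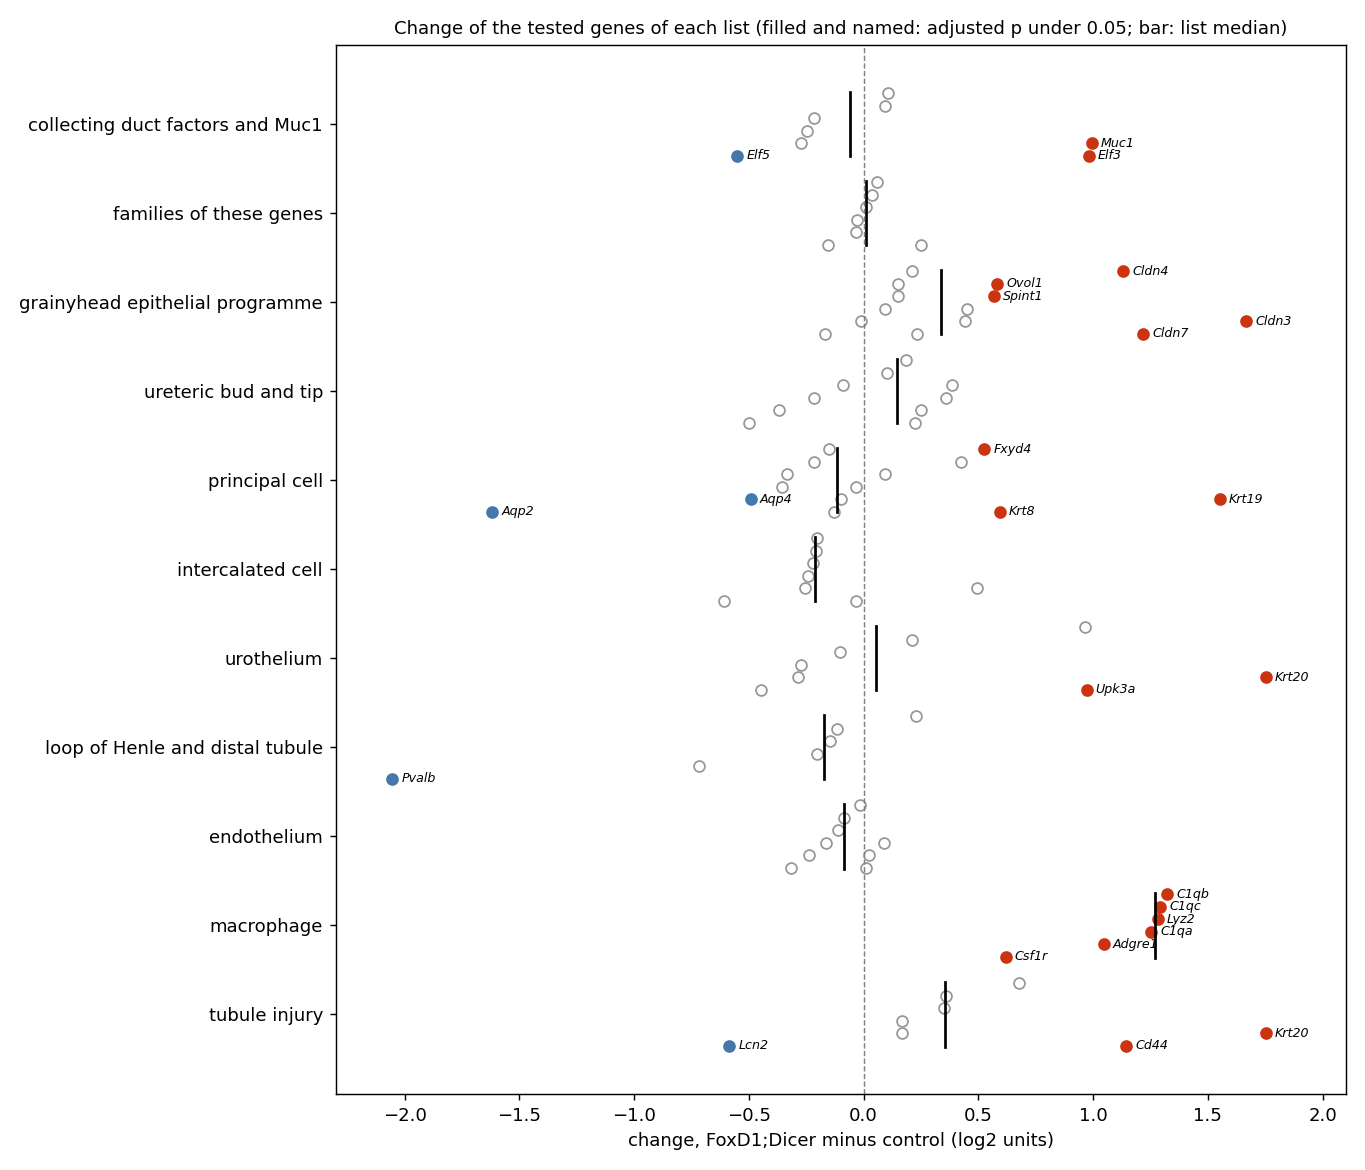
Change of every tested gene of 11 lists (horizontal axis, log2 units, mutant minus control), with called genes filled and named and the list median as a bar. Elf3 and Muc1 lie near 1 and Elf5 near -0.55, the grainyhead programme has called genes to the right alone, and principal cell genes have called genes on both sides.

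The kidneys were whole organs, so fewer cells of a type and less RNA per cell cannot be told apart. Urothelium, which lines the renal pelvis and also expresses Elf3 and Muc1, was therefore followed by its own markers. Of 9 genes, 8 were tested, 2 rose and 0 fell, with a median change of 0.05. Krt20, a keratin of superficial urothelial cells, was detected on 0 of 3 control arrays and on all 3 mutant arrays, with mean levels of 4.91 and 6.66. Its rise is therefore a bound, at least 3.24-fold against the lowest signal of a detected probe. The change of 1.75 in the fit was 1.08 with an offset of 50 and 0.52 in the authors' log2 values. Krt20 passed the detection filter through the mutant arrays alone, so its call (limma, adjusted p = 0.00331) is no added support for a rise. Upk3a rose by 0.97 ± 0.17 (adjusted p = 0.0236), while the uroplakins Upk1a, Upk1b and Upk2 had changes of -0.10, -0.27 and -0.45. Within litters Upk2 differed by 1.43, -1.47 and -1.30, and the median of the list by 1.27, -0.18 and -0.44. Upk1a, Upk1b and Upk2 were thus higher in the mutant pool of litter 1 and lower in those of litters 2 and 3, whereas Upk3a, Upk3b, Elf3 and Muc1 were higher in all 3. The summed level of the list, in linear units after background correction, was 504.6 to 1000 in control pools and 710.4 to 1311 in mutant pools, and Krt5, a basal cell keratin, was not detected. Without litter 2 neither Krt20 (adjusted p = 0.0506) nor Upk3a (1.21, adjusted p = 0.0556) was called, and without litter 1 Upk3a was not (0.86, adjusted p = 0.0735). The list without litter 1 had 1 gene called higher and 2 called lower. Its median was then -0.33, but 0.26 without litter 2 and 0.46 without litter 3.

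Macrophage markers moved with genotype as well. Of 10 listed, 6 were tested and all 6 rose, with a median of 1.27 and with C1qb, C1qa, Lyz2 and Adgre1 at 1.32, 1.25, 1.28 and 1.05 (adjusted p = 0.00288, 0.00310, 0.00379 and 0.00408). Their summed level was 403.7 to 520 in control pools and 1116 to 1182 in mutant pools, while Ptprc and Itgam, which mark leukocytes and myeloid cells, were not detected. Of 10 tubule injury genes, 8 were tested, 2 rose and 1 fell, with a median of 0.35. Havcr1, which was not called, and Krt20 entered the tested genes through the mutant arrays alone, and this raised the median. With probes detected on all 6 arrays it was 0.26. The summed levels of the 8 genes were 7881 to 8571 in control pools and 9400 to 9790 in mutant pools. That linear sum came mainly from Anxa2 (mean levels 12.62 and 12.79), whose change of 0.17 was not called (limma, adjusted p = 0.426). Of the 2 that rose, Krt20 had passed the detection filter through the mutant arrays alone, and Cd44, a surface receptor, rose by 1.14 (adjusted p = 0.00932). Lcn2, a secreted injury marker, fell by 0.58 (adjusted p = 0.0255). The part of these cells or states in the levels of Elf3, Muc1 and Elf5 was not tested. Without litter 2 none of these calls was kept, although all 6 macrophage genes then had an unadjusted p under 0.05.

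For the GATA genes the other sources were endothelium, blood and mesangium. None of 9 tested endothelial genes was called by limma (1 at an unadjusted p under 0.05), and their summed level was 8883 to 9350 in control pools and 8368 to 8985 in mutant pools. None of 6 tested mast cell and erythroid genes was called either (1 at an unadjusted p under 0.05), with summed levels of 19860 to 21050 and 18090 to 18820. Nearly all of that sum came from Hba-a1 (mean levels 14.28 and 14.14), whose change was -0.14 (limma, adjusted p = 0.494). Of 7 mesangial genes tested, Gata3 included, 4 fell, 0 rose and 3 were not called. Those that fell included Agtr1a, the angiotensin receptor, by 0.85 (adjusted p = 0.00743), and Fhl2 by 0.82 (adjusted p = 0.0142). Pdgfrb, a platelet-derived growth factor receptor, also fell, by 0.85 (SE 0.17, adjusted p = 0.0410). The summed level was 3970 to 4067 in control pools and 2791 to 2957 in mutant pools. It was weighted to the brightest gene, Ptn (mean levels 11.25 and 10.75), which also fell (change -0.50, limma, adjusted p = 0.0433). Those not called besides Gata3 were Des at 0.36 ± 0.11 (adjusted p = 0.134), positive in all 3 litters, and Itga8 at 0.07 (adjusted p = 0.885). The part of the mesangium in the level of Gata3 was not tested. The count of mesangial calls was 0 without litter 2, where 5 genes had an unadjusted p under 0.05 in limma, and 2 without litter 3. Of 8 T and innate lymphoid cell genes, Thy1 alone was tested, at -0.83 (adjusted p = 0.0128), and Cd3d, Cd3e and Cd3g were not detected.

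The genes whose levels followed the called genes most closely over the 6 arrays are given as a description with no test, by Pearson's r with the other tested genes, all of which share the same 2 groups of pools. For Elf3 they were Dusp8 (r = 0.997), Cd44 (0.997) and Tsg101 (0.994), and the most opposed were Galnt16 (-0.992), Gucy1a1 (-0.990) and Il17d (-0.989). For Muc1 they were Tspan14 (0.997), Cdkn1a (0.995) and Nckap1l (0.994), with Dmtf1 (-0.996), Cox20 (-0.995) and Timm8a1 (-0.995) opposed. Elf5 was followed by Coprs (0.998), Ush1c (0.992) and Gcdh (0.992) and opposed by Gadd45b (-0.999), Mpeg1 (-0.994) and Pdcd4 (-0.993).

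**Figure D4:**
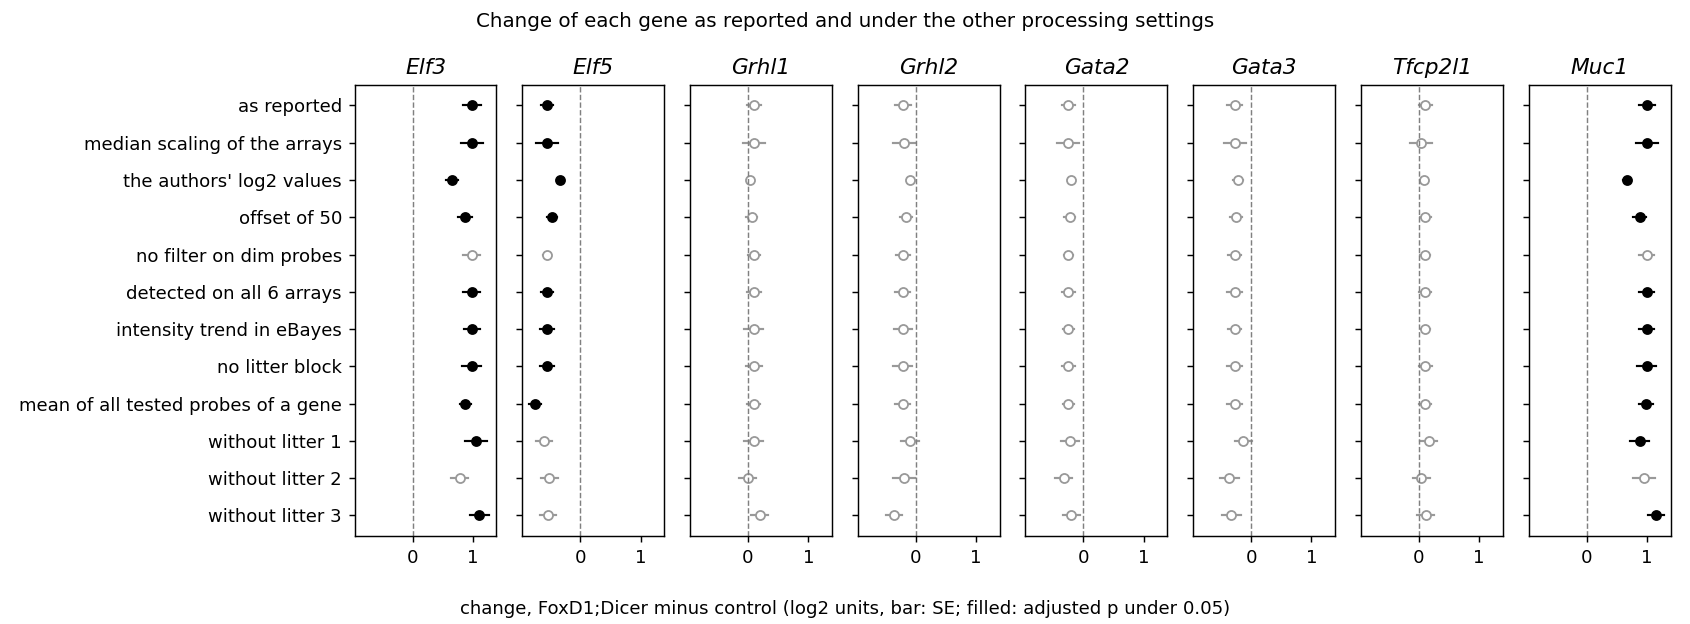
Change of each of the 8 tested genes (horizontal axis, log2 units, mutant minus control, bars ± 1 SE) as reported and under each of 11 other ways of processing (vertical axis), filled where the adjusted p is under 0.05. Elf3 lies between 0.66 and 1.11, Muc1 between 0.67 and 1.15 and Elf5 between -0.75 and -0.33, with open points for all 3 where dim probes were kept or litter 2 was left out, and for Elf5 also without litter 1 or 3.

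Across the series, the arrays had median intensities of 100.3 to 107.6 and detected 16154 to 17051 probes. The brighter of 2 Dicer1 probes had a change of -0.28 ± 0.11 (adjusted p = 0.241) and the dimmer 1 of -0.63 ± 0.13 (adjusted p = 0.0453), and their place relative to the deleted exon was not known here. Foxd1 had a change of 0.04 ± 0.22 (adjusted p = 0.955). Of 10 kidney markers 7 were tested, of which Lrp2, a proximal tubule receptor, and Aqp2 fell, while Pax2 was not detected on any array. Of 10 genes of the loop of Henle and distal tubule 6 were tested, and Pvalb, a calcium-binding protein of the distal tubule, fell (adjusted p = 0.00361) from a mean level of 6.76 in control pools to 4.70 in mutant pools, where 1 of the 3 arrays detected it. Pvalb met the detection filter through the control arrays, where it was high. The size of its fall depended on the scale, with a change of -2.05 in the fit, -1.27 with an offset of 50 and -0.63 in the authors' log2 values. The male-specific gene Eif2s3y read 8.50, 8.43 and 4.38 in control pools and 8.21, 4.28 and 4.28 in mutant pools, so the pools of litter 2 differed in male tissue. Without litter 2, 44 of all 9921 tested genes were called, in place of 552. The changes of Elf3, Muc1 and Elf5 were then 0.79, 0.96 and -0.51. The part of male tissue in any call was not tested.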

How the data were processed

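Per the labels, the 6 samples are pools of whole E18.5 kidneys, 1 control and 1 FoxD1GC;Dicerfl/fl pool from each of 3 litters. The deposited intensity table gives, per the file headers, the linear intensity of each probe with its detection p-value, neither background-corrected nor normalized. A deposited log2 table holds the authors' processed values, made with lumi according to the methods (column medians 6.825 to 6.826, genes not centred), and served as an alternative. Of 45281 rows, 8 were damaged and left out. Probes were named through the platform annotation: 34877 had 1 symbol, 18 several and 10378 none.

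Intensities were processed by the neqc function of limma 3.58.1 (R 4.3.3), that is normexp correction with background inferred from the detection p-values, quantile normalization, an offset of 16 and log2. Probes with a detection p under 0.01 on at least 3 arrays (16899 probes, 9921 genes) were fitted with lmFit and eBayes with litter as a block, as the methods state, and adjusted by Benjamini-Hochberg over all probes. Litters come from the labels, and the pools of a litter deviated together (correlations 0.187, 0.181 and 0.139). The fit was tested on simulated data with independent normal errors drawn from its own variances. That check could not show whether these assumptions hold for the arrays. Precision was limited by how few arrays there were, with a median SE of 0.116 log2 units. The genes and 15 lists were chosen with earlier results of these data known. From each list up to 4 called genes with the smallest adjusted p were named by rule, and for each called gene the 3 genes most and least like it. Alternatives varied the scaling, source of values, offset, filter, variance trend, block, litters and probe rule.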

Additional observations from a re-analysis of the deposited data

How the results depend on the processing

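The changes of Elf3, Muc1 and Elf5 kept their direction under all 11 alternatives. Elf3 ranged from 0.66 to 1.11, Muc1 from 0.67 to 1.15 and Elf5 from -0.75 to -0.33, with the smallest sizes in the authors' log2 values. With dim probes kept, more probes shared the adjustment, and Elf3 (0.98, adjusted p = 0.0750), Muc1 (0.99, adjusted p = 0.0507) and Elf5 (-0.55, adjusted p = 0.0589) were not called by limma. The count of called genes among the 9 was then 0 (4 at an unadjusted p under 0.05), of their probes 4, of list genes 16 in place of 27, and of all genes 265 in place of 552. An intensity trend in eBayes called 865 of all genes.

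Leaving out 1 litter gave changes of 0.79 to 1.11 for Elf3, 0.88 to 1.15 for Muc1, -0.60 to -0.51 for Elf5 and -0.0054 to 0.19 for Grhl1, the single direction that reversed (without litter 2). It gave 0 to 2 called genes among the 9, 0 to 8 of their probes, 3 to 22 list genes and 44 to 538 of all genes. The lowest counts came without litter 2, where 3 of the genes and 9 of the probes had an unadjusted p under 0.05. The cause was not tested. Such fits rest on 2 litters.

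Without the replicate block, 3 genes (adjusted p = 0.0114 for Elf3, 0.0103 for Muc1 and 0.0318 for Elf5), 9 of their probes and 528 of all genes were called. The block changed no call among the 9 genes. An offset of 50 gave smaller sizes (Elf3 0.86, Muc1 0.88, Elf5 -0.47).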
